A study of Mus musculus with 23 samples.

Results

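The comparison described here asks whether the lineage a mouse came from, omega 3 or control, was seen in its liver miRNAs once both lineages ate the same obesogenic diet. It takes in 15 of the 23 small RNA libraries of the series: 7 livers of the HFepa group (HFD_O3 in the labels, libraries 16 to 22) and 8 of the HFoleic group (HFD_Cont, libraries 9 to 15 and 23). All were F3 male mice of the C57bl/6J strain, and each library is the liver of 1 mouse. In the omega 3 lineage, breeding mice had been given a growing diet with a fish oil rich in EPA, an omega 3 fatty acid; in the control lineage the oil was a high-oleic sunflower oil, rich in the monounsaturated oleic acid. Mice of both groups then received the same high-fat, high-sucrose diet and were killed fasted. Diet at the time of sampling, sex, strain and generation are thus shared, and the lineage is what differs by design. Library totals and library numbers also differed between the groups, as given below. The 8 mice of the reference group (libraries 1 to 8), of the control lineage on a low-fat diet, entered the fit, where they add to the estimate of spread, to the filter on low counts and to the scaling, and are given here as a background level. Members were all mature miRNAs of the deposited count table, 1218 in number, of which 386 had enough counts to be tested; these held 99.985% of the counts.

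A microRNA is a short RNA cut from a hairpin precursor, loaded into an Argonaute protein and guided to messenger RNAs by its seed, the stretch of bases 2 to 8, so that miRNAs with the same seed share many targets. Each hairpin gives a 5p and a 3p arm, of which usually 1 is kept in quantity as the guide and the other, the passenger, is mostly degraded. Many miRNA genes lie in clusters read as 1 transcript or inside introns of protein-coding genes. Liver miRNA is dominated by a few species, among them miR-122, the miRNA that defines hepatocytes, and others act on cholesterol export, insulin signalling and mitochondrial metabolism. Because these are whole livers, fewer cells of a type and less RNA per cell cannot be told apart in any level below.

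The sequences that carry the comparison are given from RefSeq (GRCm38.p6), in the 5′ to 3′ direction with the seed in capitals; 333 of the 386 tested miRNAs had an entry there. The first 6 are the miRNAs with the smallest p between the groups, and no seed is shared among them.
miR-190a-5p: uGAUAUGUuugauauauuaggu
miR-340-5p: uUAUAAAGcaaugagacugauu
miR-425-3p: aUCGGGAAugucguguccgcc
miR-148a-5p: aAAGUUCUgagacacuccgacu
miR-1981-5p: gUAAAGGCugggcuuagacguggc
miR-676-3p: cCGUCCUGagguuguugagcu

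The next are guide miRNAs that make up much of the liver total, with the rare opposite arm of miR-22, shown because the paired arms are compared later.
miR-192-5p: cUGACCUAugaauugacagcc
miR-148a-3p: uCAGUGCAcuacagaacuuugu
miR-22-3p: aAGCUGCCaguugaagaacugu
miR-22-5p: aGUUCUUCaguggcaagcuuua
miR-30a-5p: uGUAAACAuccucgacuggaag

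A last set shows families and a cluster whose members are described together: miR-103 and miR-107, which share a seed, the 4 miR-181 guides, which share another, and the guides of the miR-99b, let-7e and miR-125a cluster, which share a transcript but no seed.
miR-103-3p: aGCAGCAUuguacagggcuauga
miR-107-3p: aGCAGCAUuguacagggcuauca
miR-181a-5p: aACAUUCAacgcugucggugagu
miR-181b-5p: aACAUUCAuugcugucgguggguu
miR-181c-5p: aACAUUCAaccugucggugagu
miR-181d-5p: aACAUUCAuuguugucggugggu
miR-99b-5p: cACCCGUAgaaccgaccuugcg
let-7e-5p: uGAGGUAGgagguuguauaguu
miR-125a-5p: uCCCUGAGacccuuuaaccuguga

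Library totals were lower in HFepa, at 3725432 to 4947990 counts (median 4400595), than in HFoleic, at 4340903 to 7220112 (median 5408676; two-sided exact permutation test of the mean, p = 0.00404). With libraries 12 to 23 alone HFoleic lay at 4340903 to 5774616 (p = 0.0328, same exact test). HFoleic libraries 9 to 11 carry numbers next to those of the reference mice, no HFepa library has such a number, and the labels name no batch. In 72 of the 386 miRNAs (18.7%) the levels of HFoleic libraries 9 to 11 did not overlap those of the 5 other HFoleic libraries. The widest such case named here, miR-501-3p (chosen after its values were seen), lay at 9.62 to 14.8 CPM (counts scaled to a common library total) in libraries 9 to 11, at 57.4 to 146 CPM in the other HFoleic libraries, at 24.3 to 95.6 CPM in HFepa and at 7.81 to 15.4 CPM in the reference mice. Estimates are therefore also given with libraries 12 to 23 alone, 7 HFepa against 5 HFoleic, for the results they touch. The part of the library number in the results was not tested beyond these fits.

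No miRNA separated the 2 lineages under the high-fat diet. Of the 386 tested miRNAs, 0 (0%) were called by the quasi-likelihood test of edgeR, where a call needed both an adjusted p (Benjamini-Hochberg) under 0.05 and a log2 fold change of more than 0.25 in either direction, and the lowest adjusted p was 0.329. At an unadjusted p under 0.05 there were 22 (5.70%), of which 18 had a lower level in HFepa (4.66%) and 4 a higher one (1.04%). This split moved with the setting. A higher level was found in 8 of 23 with DESeq2, 9 of 23 with library size alone and 11 of 24 with the 2 high-fat groups alone. With libraries 12 to 23 it was 10 of 21, and with all libraries thinned to 1 total 13 of 23. Lower levels were the larger part in all of these but the last. They were also the larger part in other settings. A higher level was found in 3 of 18 with upper-quartile factors, 2 of 10 by quantile normalization and 4 of 21 with a library-number term. It was found in 5 of 21 with the stricter count filter, 17 of 55 by limma-voom and 20 of 66 with no filter. With DESeq2 0 were called as well, and 23 passed the same unadjusted threshold. In 0 of the 386 miRNAs did the 7 HFepa levels lie wholly above or below the 8 HFoleic levels. Log2 fold changes, HFepa vs. HFoleic, had a median of -0.02, with 206 below 0 (53.4%) and 180 above (46.6%), and reached from -0.77 to 0.96. The scatter widened toward low levels, as the plot of difference against level shows.

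**Figure D1:**
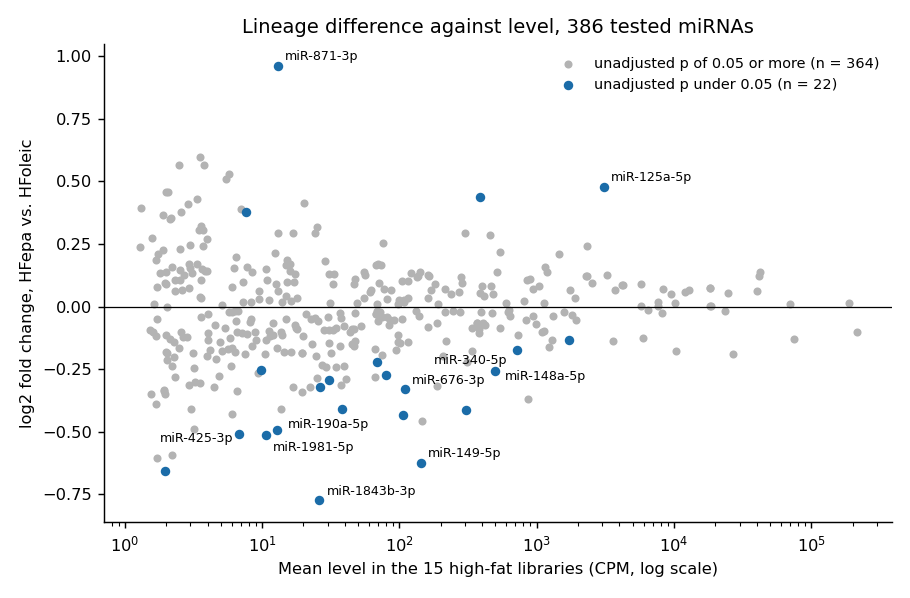
Log2 fold change, HFepa vs. HFoleic, of the 386 tested miRNAs (y axis) against the mean level in the 15 high-fat libraries in CPM on a log scale (x axis); each point is 1 miRNA, blue where the unadjusted p was under 0.05. The 22 blue points lie on both sides of 0, 18 below and 4 above in this fit. That split was 10 above of 21 with libraries 12 to 23 alone and 4 above of 21 with a library-number term. Of the 386 miRNAs, 0 reached an adjusted p under 0.05.

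What the libraries could have shown is given by the 95% intervals of the log2 fold changes, which rest on the spread between mice. That spread includes the reference mice, which reached far higher levels in some lists. Their summed pancreas markers reached 2021 CPM, against 34.1 CPM in HFoleic. Over 355 miRNAs tested in both fits, the median half-width was 0.32 with 3 groups and 0.30 with the 2 high-fat groups. The interval lay wholly within a doubling or halving, that is between -1 and 1, in 330 of the 386 miRNAs (85.5%), and between -0.5 and 0.5 in 196 (50.8%). Precision followed the level. Of the 53 miRNAs whose mean reached 1000 CPM, together 96.8% of the CPM, 49 (92.5%) had an interval within 0.5 of 0, whereas of the 133 with a mean under 10 CPM 16 did. The median half-width of the interval was 0.21 in the first group and 0.56 in the second. For most miRNAs under 10 CPM this fit thus did not bound the lineage difference to within 0.5 of 0. For the abundant ones the bounds are those of the fit with all libraries, at 95% for each miRNA taken singly. They are not a limit on the difference, since some bounds moved outward when fewer HFoleic libraries were compared, as given below.

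The 12 most counted miRNAs held 77.0% of the CPM of the high-fat livers, and their 12 intervals all lay within 0.5 of 0 on the log2 scale. miR-192-5p, a miRNA of hepatocytes and gut epithelium, had 188228, 204916 and 227515 CPM as its lowest, median and highest level in HFepa and 189327, 226434 and 239389 CPM in HFoleic. The ranges overlapped almost whole, although 6 of the 7 HFepa mice lay below the HFoleic median; its log2 fold change was -0.10 (95% interval -0.33 to 0.13). miR-22-3p, which is abundant in liver and muscle, lay at 170599, 195843 and 205852 CPM in HFepa and 167195, 186154 and 209900 CPM in HFoleic. Its log2 fold change of 0.01 had an interval from -0.13 to 0.16, among the narrowest of these miRNAs. For miR-122-5p, which acts on cholesterol and fatty acid metabolism, HFepa had 13698, 18845 and 22690 CPM and HFoleic 14900, 19096 and 21124 CPM. The estimate was 0.00 (-0.25 to 0.25), and no direction can be read from it. The level listed for miR-122b-3p stayed at a ratio of 1.01 to 1.02 to miR-122-5p in all 15 libraries, so the counts of these 2 entries are not separate measurements.

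Guides of the remaining top 12 behaved alike, with differences smaller than the spread between mice. miR-27b-3p had the narrowest interval (estimate -0.02, -0.13 to 0.10), and miR-30a-5p an estimate of 0.01 (-0.15 to 0.17). miR-26a-5p, at 35816, 45257 and 48247 CPM in HFepa and 35813, 39540 and 46533 CPM in HFoleic, had an interval that only just included 0 (log2 fold change 0.14, -0.01 to 0.28). Its level was above the HFoleic median in 6 of the 7 HFepa mice, and with libraries 12 to 23 alone the estimate was 0.07. miR-21a-5p, a miRNA raised in stressed and fibrotic liver, had an estimate of 0.12 (-0.09 to 0.33), and miR-143-3p, of smooth muscle, 0.06 (-0.17 to 0.28).

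In 3 of the 12 the sign of the estimate turned when libraries 12 to 23 were used alone. miR-148a-3p, which represses the LDL receptor and the cholesterol exporter ABCA1, had 53256, 72666 and 83525 CPM in HFepa and 62158, 74200 and 99662 CPM in HFoleic. The high end of HFoleic came from libraries 9 to 11, at 80680 to 99662 CPM; the estimate was -0.13 (-0.33 to 0.07) with all libraries and 0.03 (-0.19 to 0.25) with libraries 12 to 23. let-7f-5p, a let-7 guide, lay at 34666 to 37235 CPM in HFoleic libraries 9 to 11, above the highest HFepa mouse at 31050 CPM. Its estimate went from -0.19 (-0.44 to 0.06) to 0.07 (-0.15 to 0.29). For miR-10a-5p the values were 0.06 (-0.18 to 0.30) and -0.06 (-0.32 to 0.21).

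**Figure D2:**
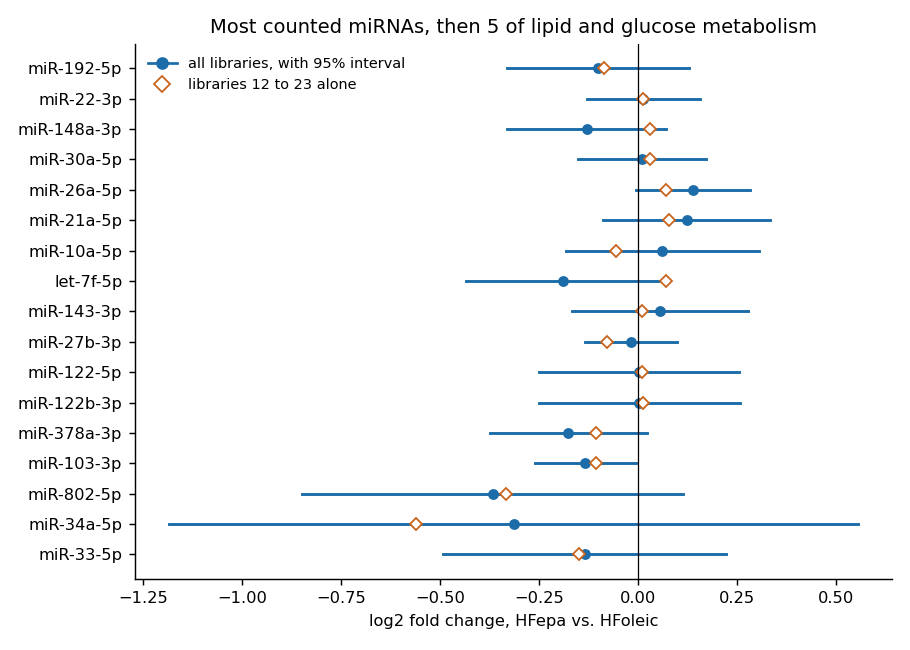
Log2 fold change, HFepa vs. HFoleic (x axis), of the 12 most counted miRNAs and of 5 miRNAs of lipid and glucose metabolism; filled points and lines are the estimate with all libraries and its 95% interval, open diamonds the estimate with libraries 12 to 23 alone. The 12 upper intervals all include 0 and stay within 0.5 of it, while that of miR-34a-5p spans -1.18 to 0.56.

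The 6 miRNAs with an unadjusted p under 0.01 (1.55% of those tested) all had lower median levels in HFepa. None passed the adjustment, with an adjusted p by edgeR's quasi-likelihood test of 0.329 for miR-190a-5p and of 0.525 for each of the other 5. miR-190a-5p, from an intron of Tln2 (chr9:67236700-67236721, minus strand), had 8.15, 10.4 and 15.0 CPM in HFepa and 12.8, 14.8 and 17.9 CPM in HFoleic. In 6 of the 7 HFepa mice the level was under that of the lowest HFoleic mouse, and the exception, library 19, was the only one that reached the HFoleic range. The log2 fold change was -0.49 ± 0.13 (SE; 95% interval -0.76 to -0.23, adjusted p = 0.329 by edgeR's quasi-likelihood test), and -0.45 (-0.78 to -0.12) with libraries 12 to 23 alone. It was the 1 miRNA called under any alternative: by limma-voom with quality weights (log2 fold change -0.54, adjusted p = 0.0253) and by edgeR without HFepa library 19 (-0.59, adjusted p = 0.0449). The reference mice lay at 9.23 to 15.5 CPM, across both high-fat groups.

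miR-340-5p, from an intron of Rnf130 (chr11:50069720-50069741, plus strand), lay at 625, 663 and 718 CPM in HFepa and 667, 754 and 844 CPM in HFoleic. All 7 HFepa mice were below the HFoleic median and 4 below the lowest HFoleic mouse. The difference was small and its interval narrow, with a log2 fold change of -0.17 (-0.28 to -0.07); with libraries 12 to 23 it was -0.13 (-0.28 to 0.02). miR-148a-5p, the passenger arm of the abundant miR-148a-3p (chr6:51269867-51269888, minus strand), had 410, 425 and 547 CPM in HFepa and 401, 556 and 630 CPM in HFoleic. Again the 7 HFepa mice lay below the HFoleic median, while the lowest single mouse was an HFoleic one. Its estimate was -0.26 (-0.44 to -0.07) and stayed at -0.25 (-0.48 to -0.02) with libraries 12 to 23.

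For the other 3 the estimate shrank once HFoleic libraries 9 to 11 were set aside. miR-425-3p (chr9:108568830-108568850, plus strand), of the miR-191 and miR-425 hairpin cluster, had 4.47, 5.20 and 7.85 CPM in HFepa and 4.44, 7.73 and 12.8 CPM in HFoleic, with libraries 9 to 11 at 8.12 to 12.8 CPM. The HFepa mice thus covered nearly the same levels as the remaining HFoleic mice, and the log2 fold change went from -0.51 (-0.88 to -0.14) to -0.23 (-0.65 to 0.18). miR-1981-5p, from an intron of Marc2 (chr1:184822465-184822488, minus strand), went from -0.51 (-0.89 to -0.14) to -0.32 (-0.79 to 0.16). miR-676-3p, from an intron of Eda (chrX:100381151-100381171, plus strand), had 81.0, 100 and 105 CPM in HFepa and 80.9, 120 and 153 CPM in HFoleic. Its 3 highest HFoleic levels, 126 to 153 CPM, were those of libraries 9 to 11, and the estimate went from -0.33 (-0.57 to -0.09) to -0.15 (-0.39 to 0.08).

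**Figure D3:**
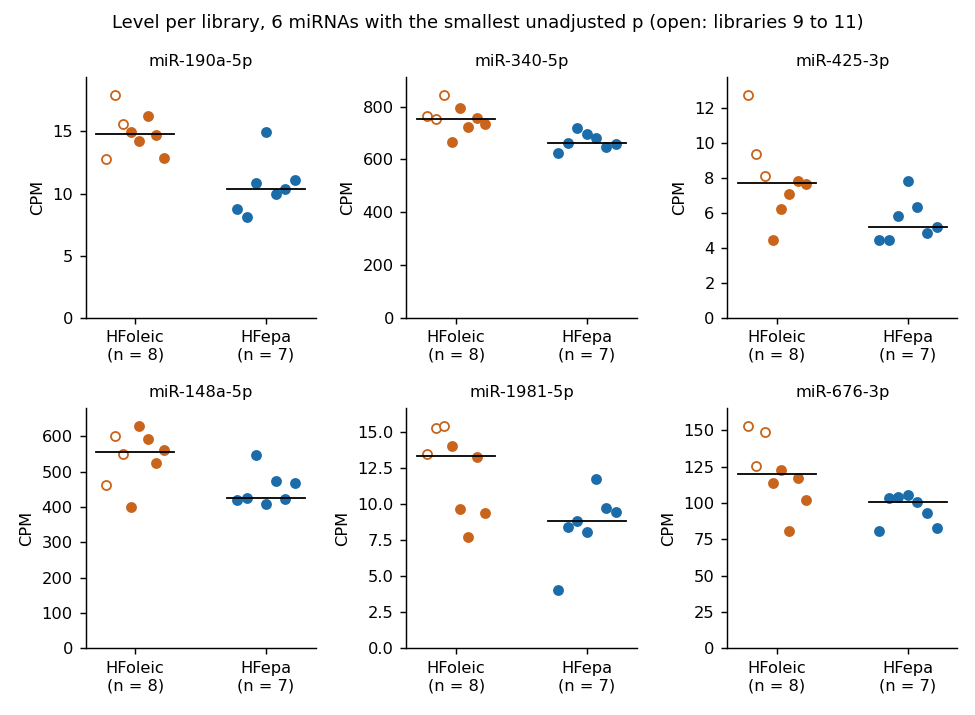
Level per library in CPM (y axis, from 0) of the 6 miRNAs with an unadjusted p under 0.01, in HFoleic (orange, n = 8) and HFepa (blue, n = 7); each circle is 1 mouse, open circles are libraries 9 to 11 and black lines are group medians. In each panel the HFepa median is the lower one and the ranges of the groups overlap.

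Of the 22 miRNAs with an unadjusted p under 0.05, 21 could be tested with libraries 12 to 23 alone. The 21 estimates kept their sign, 14 of them became smaller in size and 7 had p under 0.05. Those libraries also entered the fit by which the 21 were picked, so the kept sign is no separate support. In 6 of the 22 (27.3%) HFoleic libraries 9 to 11 stood apart from the other HFoleic libraries, against 18.7% of all tested miRNAs. The largest difference downward, in miR-1843b-3p, was of that kind. It had 13.1, 19.9 and 23.8 CPM in HFepa and 13.8, 24.1 and 56.7 CPM in HFoleic, where libraries 9 to 11 held 51.7 to 56.7 CPM; the log2 fold change was -0.77 with all libraries and -0.04 with libraries 12 to 23. miR-222-3p went from -0.43 (-0.75 to -0.11) to -0.04 (-0.25 to 0.16) in the same way, and on the higher side miR-5099 from 0.44 to 0.10, its HFoleic libraries 9 to 11 lying at 174 to 197 CPM against 361 to 546 CPM in HFepa.

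In the other 7 of the 21 the estimate was larger in size with libraries 12 to 23 alone, most of all in miR-149-5p, from an intron of Gpc1. Its levels were 55.0, 122 and 179 CPM in HFepa and 81.2, 156 and 274 CPM in HFoleic. The groups overlapped, with 3 HFepa mice under the lowest HFoleic mouse, and the log2 fold change was -0.62 (-1.23 to -0.01), or -0.89 (-1.56 to -0.22) with libraries 12 to 23; without HFepa library 22 it was -0.47, with an unadjusted p above 0.05. Another of the 7 was miR-331-3p (chosen after its values were seen), which had -0.29 (-0.54 to -0.04) with all libraries and -0.39 (-0.65 to -0.12) with libraries 12 to 23.

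On the higher side, 2 estimates changed in size, though not in sign, when single HFepa mice were left out. miR-125a-5p (chr17:17830817-17830840, plus strand, in Spaca6) had 1408, 3698 and 6090 CPM in HFepa and 1763, 2692 and 3349 CPM in HFoleic. Its HFepa median thus lay above the highest HFoleic mouse. Both the lowest and the highest of the 15 mice were HFepa, libraries 19 and 16; the log2 fold change was 0.48 (0.06 to 0.90), 0.30 without library 16, with an unadjusted p above 0.05, and 0.63 without library 19. miR-871-3p, of a cluster on the X chromosome, ranged from 1.43 CPM in library 19 to 46.1 CPM in library 16 within HFepa, around a median of 12.3 CPM, and from 5.62 to 14.2 CPM in HFoleic. Its estimate was 0.96 (0.09 to 1.83) and 0.50 without library 16, where the unadjusted p was above 0.05. Library 19 also had the largest TMM factor of the 15 libraries, 1.13, and the lowest total.

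Among 27 tested miRNAs of a list of 28 known to act on lipid and glucose metabolism, 13 had an estimate above 0 and 14 below (median log2 fold change -0.02, as over all 386), and 1 had an unadjusted p under 0.05, where 5.70% of all tested miRNAs did. That 1 was miR-103-3p, from introns of Pank2 and Pank3, a miRNA that lowers insulin sensitivity in liver and fat. Its levels were 1454, 1588 and 1936 CPM in HFepa and 1676, 1815 and 1902 CPM in HFoleic, and 5 of the 7 HFepa mice lay under the lowest HFoleic mouse. The log2 fold change was -0.13 (-0.26 to -0.01). miR-107-3p, from an intron of Pank1 and with the same seed, had a similar estimate of -0.16 (-0.42 to 0.10), also with 5 of 7 HFepa mice under the lowest of HFoleic. How the authors counted reads that match both was not given in the sources used here, so the pair is not a set of independent measurements.

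miR-34a-5p, a p53-responsive miRNA that represses the deacetylase SIRT1 and is known to be raised in fatty liver, had 20.5, 24.8 and 73.5 CPM in HFepa and 25.4, 36.6 and 78.5 CPM in HFoleic. In 6 of the 7 HFepa mice the level was below the HFoleic median, while library 19, at 73.5 CPM, stood next to the highest HFoleic mouse. The estimate was -0.31 with an interval from -1.18 to 0.56; the reference mice, whose spread enters it, lay at 13.0 to 124 CPM. With only the 2 high-fat groups in the fit it was -0.28 (-0.90 to 0.35), with libraries 12 to 23 -0.56 (-1.23 to 0.11) without library 19 -0.63 and without HFoleic library 14 -0.10. The 3 intervals given include 0, and the first and the last of them also a halving.

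miR-802-5p, a miRNA linked to glucose metabolism, was as spread within HFepa, from 277 to 1387 CPM around a median of 636 CPM, against 701, 948 and 1268 CPM in HFoleic. The lowest 4 of the 15 mice were HFepa and so was the highest, library 19. Its log2 fold change was -0.37 (-0.85 to 0.11), -0.58 without library 19, with an unadjusted p under 0.05, and -0.21 without library 16. By limma-voom it was -0.60, also with an unadjusted p under 0.05. The remaining metabolic miRNAs had narrower values. miR-33-5p, which lies within an intron of Srebf2 and represses cholesterol export, had an estimate of -0.13 (-0.49 to 0.22), or -0.04 without HFepa library 22, and miR-378a-3p, a miRNA of mitochondrial metabolism within Ppargc1b, -0.18 (-0.37 to 0.02). For miR-378a-3p, at 7923, 10245 and 11072 CPM in HFepa and 8305, 11528 and 11930 CPM in HFoleic, all 7 HFepa mice lay below the HFoleic median.

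**Figure D4:**
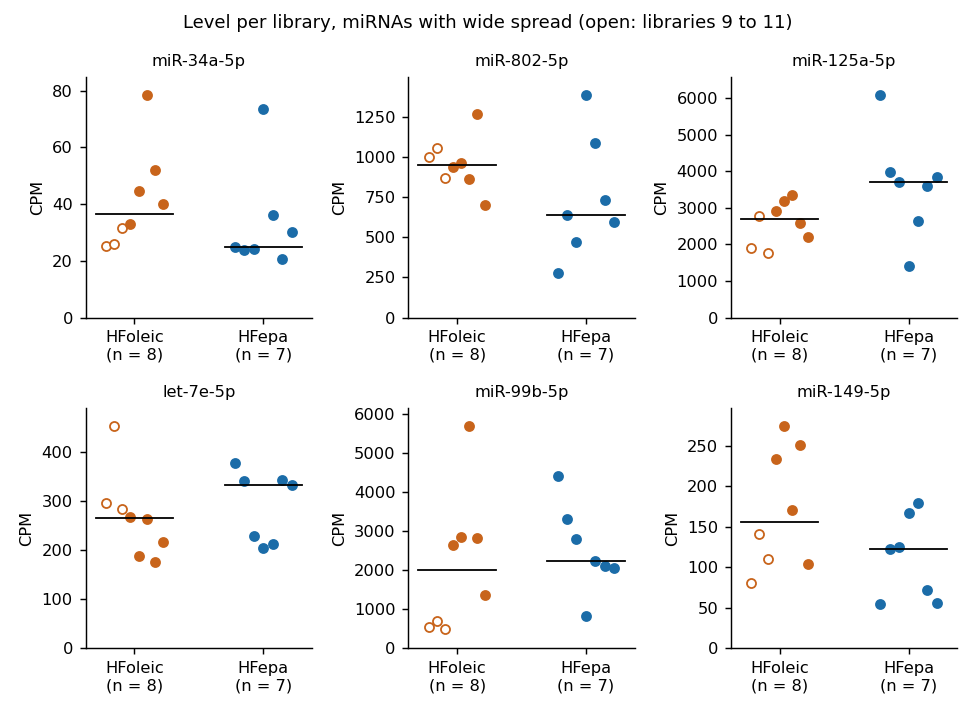
Level per library in CPM (y axis, from 0) of 6 miRNAs with a wide spread between mice, in HFoleic (orange, n = 8) and HFepa (blue, n = 7); each circle is 1 mouse, open circles are libraries 9 to 11 and black lines are group medians. The single high HFepa mouse for miR-34a-5p, at 73.5 CPM, is library 19, and for miR-99b-5p the 3 open circles, at 489 to 708 CPM, lie below all others.

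Small shifts shared by related miRNAs were looked for in seed families and genomic clusters, described by counts and medians beside those of all tested miRNAs (median -0.02, 53.4% below 0). Members of a family share libraries, and those of a cluster also a transcript, so they are not replicates, and direction alone in a few members is a description. The 9 let-7 and miR-98 guides, which share a seed and act on the insulin receptor pathway, had 5 estimates above 0 and 4 below, from let-7f-5p at -0.19 to let-7e-5p at 0.12 (median 0.03); with libraries 12 to 23, 8 were above 0. The 5 miR-30 guides lay within 0.07 of 0, from miR-30b-5p at -0.05 to miR-30d-5p at 0.07. The miR-29 family, which represses collagen, had miR-29b-3p at -0.14 and miR-29a-3p at 0.13.

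A few families had all estimates on 1 side. The 5 miR-378 members lay below 0, from miR-378b at -0.19 to miR-378c at -0.13 (median -0.17), under each of the scalings tried and with libraries 12 to 23 alone (median -0.14); 0 of the 5 had an unadjusted p under 0.05, and members of this family are similar enough in sequence for reads to be shared. The 3 miR-148 and miR-152 guides had a median of -0.11, from -0.13 in miR-148a-3p to -0.07 in miR-148b-3p, with 1 of them above 0 when libraries 12 to 23 were used alone. Of the miR-192, miR-194 and miR-215 list, 5 of 5 lay below 0 (median -0.10, from miR-192-3p at -0.19 to miR-194-5p at -0.02), although 1 turned above 0 under another scaling and 1 with libraries 12 to 23. The 4 miR-221 and miR-222 members had a median of -0.21, led by miR-222-3p at -0.43; 1 turned above 0 under another scaling and 1 with libraries 12 to 23, where the median was -0.14.

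The 4 miR-181 guides, known from immune cells, lay above 0 under each scaling and with libraries 12 to 23 (median 0.10 and 0.14). The clearest separation of the medians was in miR-181b-5p, at 134, 149 and 166 CPM in HFepa and 117, 132 and 166 CPM in HFoleic. All 7 HFepa mice were above the HFoleic median, the ranges overlapped, and the log2 fold change was 0.14 (-0.18 to 0.46), or 0.20 (0.01 to 0.38) with libraries 12 to 23. miR-181c-5p had the smallest estimate, 0.06. The proliferation-linked miR-17~92 cluster had 5 members above 0 and 4 below (median 0.00, from miR-18a-5p at -0.16 to miR-18a-3p at 0.37), and the miR-15 and miR-16 family 4 and 2 (median 0.02). The miR-26 and miR-101 list had 2 above and 3 below (median -0.13), from miR-101c at -0.18 to miR-26a-5p at 0.14.

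**Figure D5:**
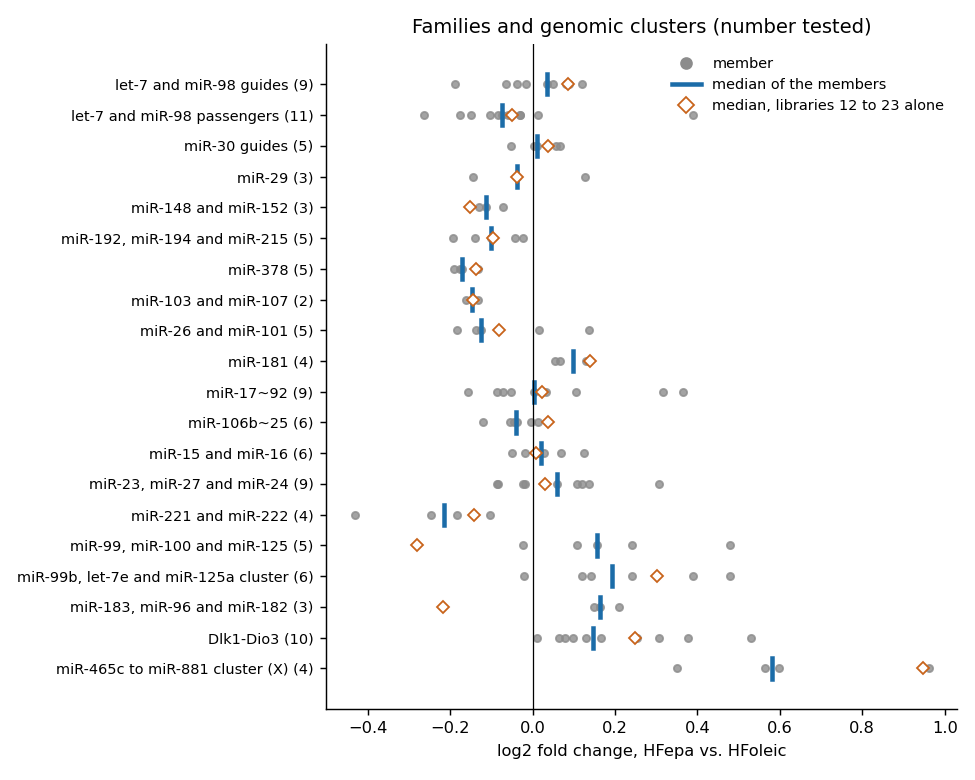
Log2 fold change, HFepa vs. HFoleic (x axis), of the tested members of 20 families and genomic clusters, with the number tested in parentheses; grey points are members, blue bars their median and open diamonds the median with libraries 12 to 23 alone. The medians range from -0.21 in the miR-221 and miR-222 cluster to 0.58 in the X-linked cluster, beside -0.02 over all tested miRNAs. Those of the miR-99, miR-100 and miR-125 list, the miR-183, miR-96 and miR-182 cluster and the miR-106b~25 cluster change side with the libraries used.

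Genomic clusters were defined as miRNA genes on 1 strand with neighbours within 10000 bases; 31 held at least 3 tested miRNAs. The cluster of miR-99b, let-7e and miR-125a on chromosome 17 had 5 of 6 members above 0 (median 0.19; 0.30 with libraries 12 to 23), and 5 or 6 under the scalings. Its members did not move as a unit. let-7e-3p, at 5.89, 7.08 and 11.4 CPM in HFepa and 4.25, 5.62 and 9.12 CPM in HFoleic, was above the HFoleic median in all 7 HFepa mice, with an estimate of 0.39 (-0.02 to 0.80) and 0.54 (0.07 to 1.02) with libraries 12 to 23. By contrast, miR-99b-5p had an estimate of 0.24 (-0.61 to 1.10), which became -0.28 with libraries 12 to 23, and miR-99b-3p one of -0.02. The list of miR-99, miR-100 and miR-125, which joins the seed of miR-99 and miR-100 with that of miR-125, had a median of 0.16 with all libraries and -0.28 with libraries 12 to 23.

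The imprinted Dlk1-Dio3 region on chromosome 12, a large miRNA cluster read from the maternal allele and mostly silent in adult liver, had 10 of 34 listed members tested. All 10 estimates were above 0 (median 0.15, from miR-409-3p at 0.01 to miR-136-3p at 0.53), 9 or 10 under the scalings and 7 of 8 with libraries 12 to 23 (median 0.25). 0 of the 10 had an unadjusted p under 0.05. In the 3-group fit their intervals were wide, since 1 or more reference mice held far higher levels. For miR-127-3p (chosen after its values were seen), at 74.2, 78.7 and 105 CPM in HFepa and 55.4, 68.7 and 92.4 CPM in HFoleic, the reference mice reached 3940 CPM around a median of 72.4. All 7 HFepa mice lay above the HFoleic median; the log2 fold change was 0.25 (-1.30 to 1.81) in that fit and 0.28 (0.06 to 0.50) with the 2 high-fat groups alone.

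The 4 tested members of an X-linked cluster that is known from testis, miR-465c-5p, miR-470-5p, miR-871-3p and miR-881-3p, lay above 0 under each scaling (median 0.58, from miR-465c-5p at 0.35 to miR-871-3p at 0.96). Apart from miR-871-3p they lay at a few CPM, and miR-881-3p had 1.43, 4.23 and 7.83 CPM in HFepa and 1.62, 2.59 and 4.63 CPM in HFoleic. HFepa library 19 had the lowest HFepa level of each of the 4, with miR-465c-5p at 0 CPM. Library 16 had the highest HFepa level of miR-470-5p, miR-871-3p and miR-881-3p. The miR-183, miR-96 and miR-182 cluster showed the opposite behaviour across libraries, with 3 of 3 above 0 (median 0.16, from miR-96-5p at 0.15 to miR-182-5p at 0.21) and 0 of 3 with libraries 12 to 23 (median -0.22). The 3 tested members of the miR-132 and miR-212 list had a median of 0.29, from miR-212-3p at 0.08 to miR-212-5p at 0.57, and 2 or 3 were above 0 under the scalings.

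Both arms of 100 hairpins could be tested. In 39 both arms had a lower estimate in HFepa, in 27 a higher one and in 34 the arms took opposite signs. Over all 386 tested miRNAs, 53.4% of estimates lay below 0. Some of the 100 are not separate measurements. miR-126b-3p and miR-126a-5p both had a mean of 18269 CPM, and miR-486a-5p and miR-486b-5p had 4213 and 4171 CPM. In 1 hairpin, miR-345 of the Slc25a47 intron (chosen after its values were seen), both arms had an unadjusted p under 0.05. miR-345-5p, at 17.4 to 36.5 CPM in HFepa and 22.2 to 36.5 CPM in HFoleic, had a log2 fold change of -0.32 (-0.60 to -0.04), and miR-345-3p one of -0.41 (-0.73 to -0.09). The ranges overlapped for both arms, with 6 of 7 HFepa mice below the HFoleic median in each, and with libraries 12 to 23 the values were -0.38 (-0.74 to -0.02) and -0.17 (-0.53 to 0.18). The arms of miR-22 took different values. The rare miR-22-5p (chosen after its values were seen), at 60.7, 66.9 and 87.5 CPM in HFepa and 73.8, 83.6 and 106 CPM in HFoleic, had an estimate of -0.27 (-0.48 to -0.07) and -0.31 (-0.57 to -0.05) with libraries 12 to 23, beside 0.01 for its abundant guide miR-22-3p. The difference between the arms was not tested.

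The summed levels of markers of each cell type overlapped between the groups. That of the 4 hepatocyte miRNAs was 262927 to 339911 CPM in HFepa and 281420 to 356589 CPM in HFoleic, and all 4 were abundant in each library, so the tissue label holds. Red blood cell miRNAs summed to 3496 to 7044 CPM and 3898 to 6222 CPM, with 3 of 3 estimates above 0 (median 0.09), though only 1 of 3 under another scaling. The 5 leukocyte miRNAs summed to 1267 to 1929 CPM and 1192 to 2000 CPM, with 4 above 0, from miR-150-5p at -0.46 to miR-155-5p at 0.29 (median 0.07). miR-150-5p, of lymphocytes, had an estimate of 0.07 with libraries 12 to 23. The 5 biliary miRNAs summed to 191 to 264 CPM and 157 to 333 CPM (2 above 0 and 3 below, median -0.09), the 3 of stellate cells and fibroblasts to 580 to 864 CPM and 504 to 724 CPM (2 above and 1 below, 0.05), the 2 of smooth muscle to 22836 to 29681 CPM and 19366 to 27903 CPM (1 above and 1 below, -0.07) and the 2 of endothelium to 19646 to 23671 CPM and 18215 to 26007 CPM (2 above, 0.08). Muscle and heart markers stayed at 1.42 to 12.2 CPM in the 15 mice, and those of pancreas at 9.24 to 34.1 CPM. None of these miRNAs had an unadjusted p under 0.05 between the lineages, and their part in the other results was not tested.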

How the data were processed

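The authors trimmed adapters with the FASTX-Toolkit, aligned reads with Bowtie in ncPRO-seq and deposited raw read counts per mature miRNA, without normalization; the labels give mm10 and bcl2fastq 2.17.1.14, and the methods name GRCm38.p6 as well as mm9. The authors' own fold changes, p-values and scaled columns were not used. From the counts, 386 of 1218 miRNAs passed filterByExpr by group, and 1 edgeR quasi-likelihood model with TMM was fitted to the 3 groups; CPM use the TMM factors. Calls needed a log2 fold change over 0.25 in either direction and an adjusted p under 0.05. Intervals (95%) are the estimate ± the t quantile times its size over the square root of F. Spread is between mice, 1 library each, and library pairs within a group differed by at least 28.9 chi-square units per degree of freedom. Members and lists were chosen with earlier results of these data known. Named miRNAs are the 12 most counted, those with p under 0.01, up to 5 of each direction with the largest change among those with p under 0.05 and at least 10 CPM (5 lower, 3 higher), 10 chosen by name, and the extremes of each list; others are marked. Fits were tested on simulated data (seed 20200412). Alternatives were DESeq2, limma with quantile normalization, limma-voom, library size, upper-quartile factors, other filters, 2 groups, libraries 12 to 23, a library-number term, thinning to 3725432 counts and leaving out each library. R 4.3.3, edgeR 4.0.16, DESeq2 1.42.0, limma 3.58.1 and Python 3.11.15 were used.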

Additional observations from a re-analysis of the deposited data

Results flagged for a closer look

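Among the named miRNAs, the highest and lowest mouse of each high-fat group were set against the rest by Dixon's ratio, over 60 groups of values; 3 exceeded the 95% limit, and chance passes it in about 1 in 20 groups. In HFepa, library 19 was the high mouse for miR-190a-5p, at 15.0 CPM with the next mouse at 11.1 CPM, and for miR-34a-5p, at 73.5 CPM with the next at 36.0 CPM. In HFoleic, library 14 was the high mouse for miR-10a-5p, at 60919 CPM with the next at 43394 CPM; without it the log2 fold change of miR-10a-5p was 0.19, against 0.06 with all libraries.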

How the results depend on the processing

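Between the lineages 0 miRNAs were called with edgeR, DESeq2, limma with quantile normalization, library size, upper-quartile factors, either other filter, the 2 high-fat groups alone, libraries 12 to 23, the library-number term or thinning; limma-voom called 1 and leaving out single libraries 0 to 1, the call coming without HFepa library 19, in both cases miR-190a-5p. The number with an unadjusted p under 0.05, 22, was 55 by limma-voom, 66 with no filter (of 1218 tested) and 10 by quantile normalization, and 13 to 35 with single libraries left out: 13 without HFepa library 16 or 22 and 35 without 19. Of the 29 named miRNAs, 20 kept their sign under every alternative run. With upper-quartile factors the estimate was -0.0091 for miR-22-3p, -0.025 for miR-30a-5p, -0.027 for miR-122-5p and -0.027 for miR-122b-3p, and by quantile normalization -0.032 for miR-21a-5p, -0.029 for miR-122-5p and -0.061 for miR-122b-3p. With libraries 12 to 23 and with the library-number term it was 0.029 and 0.023 for miR-148a-3p, -0.057 and -0.062 for miR-10a-5p, and 0.070 and 0.064 for let-7f-5p. That of miR-27b-3p was 0.0021 by DESeq2, 0.0016 by limma-voom, 0.0074 with the 2 high-fat groups and 0.017 when thinned. With single libraries left out it ranged from -0.014 to 0.065 for miR-30a-5p, -0.045 to 0.015 for miR-27b-3p, -0.041 to 0.075 for miR-122-5p and -0.040 to 0.076 for miR-122b-3p. List medians moved by more than the spread between mice in 3 of 1189 values. That spread was the within-group standard deviation, over the high-fat libraries, of the median centred log2 level of each list. It describes single libraries, so a median that moved by less is not thereby shown to be stable. The miR-106b~25 cluster, -0.04, was 0.037 with libraries 12 to 23 and 0.035 with the term. The Clcn5 intron cluster, 0.03, ranged from -0.051 to 0.152 with single libraries left out. Below that size, other medians also turned sign with libraries 12 to 23. Those of the miR-10, miR-191 and miR-425, and Clcn5 intron lists went to -0.04, -0.05 and -0.03. Those of the stellate cell, hepatocyte and metabolic lists went to -0.10, 0.02 and 0.01. The median of the miR-99, miR-100 and miR-125 list went from 0.16 to -0.28 (spread 0.73). That of the miR-183, miR-96 and miR-182 cluster went from 0.16 to -0.22 (spread 0.82). The causes were not tested. No paired analysis was possible because the labels give no number shared by mice of the 2 groups. Over 355 miRNAs tested in both fits, the median half-width of the interval was 0.32 with 3 groups and 0.30 with 2. Intervals were wide for miRNAs under 10 CPM (median half-width 0.56), and the part of depth in this was not tested. A further limit is that 3 HFoleic mice, against 5 others, had library numbers near the reference mice.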
